A study of Mus musculus with 4 samples.

Results

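Dividing and non-dividing chondrocytes of the mouse embryonic hindlimb were compared within 2 single-cell libraries, from embryonic day 13.5 (E13.5) and E15.5. The cells were chosen by measured values, separately in each library. A chondrocyte was a cell with at least 30 UMIs of Col2a1 per 10000 and at least 1 UMI of Acan, where a UMI (unique molecular identifier) stands for a captured transcript. It was called dividing when Mki67, Top2a, Cdk1 and Ccnb1 together had at least 5 UMIs, and non-dividing when they had 0. These rules took 1774 of the 9958 cells that passed the quality limits in the 4 libraries of the series, 947 of them dividing and 827 non-dividing. A further 1048 chondrocytes with a sum of 1 to 4 belonged to neither group.

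Cartilage of the growing limb is laid down by chondrocytes that divide, secrete a matrix of type II collagen and aggrecan, leave the cell cycle and then enlarge as prehypertrophic and hypertrophic cells. Prehypertrophic cells secrete Indian hedgehog (Ihh), which drives division of neighbouring chondrocytes and production of PTHrP (Pthlh) near the joint, and PTHrP acts through its receptor Pth1r to hold back hypertrophy. Mature hypertrophic cells make type X collagen (Col10a1), and the last of them express genes of mineralised matrix such as Spp1 and Ibsp.

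The series holds 1 library for each of 4 stages between E11.5 and E18.5, each of hindlimb cells pooled from several embryos of 1 litter of the C57BL/6 strain, with no other genotype or treatment named. Tissue was digested with collagenase and pronase, and cells were frozen, thawed and depleted of dead cells before droplet sequencing of transcript 3' ends. Both groups of cells compared here always came from the same library, so stage, litter and preparation were shared within a comparison, but there was no replicate of either comparison. No test across samples was therefore possible, and ranges in parentheses are exact 95% intervals that cover counting error only. They treat each UMI as independent, so an interval understates the error of a gene whose UMIs lie mostly in a few cells.

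The E13.5 library held 2816 cells that passed the limits and the E15.5 library 2598, with median depths of 10276 and 9956.5 UMIs. At E13.5 there were 1389 chondrocytes by the rule, of which 514 were dividing (37.0%, 34.5 to 39.6%) and 350 non-dividing (25.2%, 22.9 to 27.6%). At E15.5 there were 1433, with 433 dividing (30.2%, 27.8 to 32.7%) and 477 non-dividing (33.3%, 30.8 to 35.8%). The E18.5 library held 274, with 40 dividing (14.6%, 10.6 to 19.3%) and 170 non-dividing (62.0%, 56 to 67.8%), and served only for values beside the main ones. The E11.5 library held 1 chondrocyte, in neither group, and was not used. Because a deeper cell reaches a sum of 5 more easily and a shallow cell stays at 0 more easily, these shares depend on depth. The 4 libraries shared 6 to 15 cell barcodes in pairs, and of the 14 shared by E13.5 and E15.5, 7 were cells used here in either library.

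The cells carried the chondrocyte markers that the rule did not use. In cells thinned to 5000 UMIs, Matn1 (a cartilage matrix protein) was found in 99.4% of dividing and 99.1% of non-dividing cells at E13.5 and in 98.3% of both groups at E15.5. Col9a1, a chain of the type IX collagen that coats cartilage fibrils, was found in 99.6% to 100% of cells in all 4 groups. Sox9, the master regulator of chondrocytes, had a UMI in 81.2% of dividing and 82.7% of non-dividing cells at E13.5, and in 83.3% and 85.3% at E15.5. Without thinning the Sox9 shares were 97.7% and 96.9%, then 97.0% and 94.8%.

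The genes that chose the dividing cells encode the proliferation antigen Ki-67, DNA topoisomerase II alpha, the mitotic kinase Cdk1 and its partner cyclin B1. The proximal promoters of genes of late cell cycle are known for CCAAT boxes, bound by NF-Y, and for the cell cycle genes homology region (CHR), bound by the MuvB complexes. The 150 bases before the RefSeq start site of each of the 4 genes (GRCm38.p6, 5′ to 3′ along the gene) are shown because the whole comparison rests on them. Capitals mark CCAAT or its reverse complement ATTGG, and the CHR letters TTTGAA, its reverse complement TTCAAA, or TTCGAA, which is its own reverse complement.
Mki67, chr7:135716380-135716529, minus strand: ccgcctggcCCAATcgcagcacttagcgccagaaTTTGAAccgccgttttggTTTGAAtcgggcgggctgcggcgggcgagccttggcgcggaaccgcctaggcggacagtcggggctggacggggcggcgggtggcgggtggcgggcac
Top2a, chr11:99024190-99024339, minus strand: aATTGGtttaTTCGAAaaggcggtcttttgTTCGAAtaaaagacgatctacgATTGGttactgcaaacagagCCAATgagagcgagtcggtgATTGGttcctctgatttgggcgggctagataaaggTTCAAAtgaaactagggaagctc
Cdk1, chr10:69352913-69353062, minus strand: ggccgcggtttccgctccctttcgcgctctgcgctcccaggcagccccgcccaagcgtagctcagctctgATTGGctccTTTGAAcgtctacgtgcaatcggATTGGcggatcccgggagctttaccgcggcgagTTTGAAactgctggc
Ccnb1, chr13:100786487-100786636, minus strand: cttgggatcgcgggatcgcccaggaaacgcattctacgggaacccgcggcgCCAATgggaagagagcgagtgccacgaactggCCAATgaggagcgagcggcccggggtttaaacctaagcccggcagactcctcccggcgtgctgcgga

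In these windows the Mki67 promoter held 1 CCAAT and 2 CHR matches, the Top2a promoter 4 and 3, and the Cdk1 promoter 2 and 2. The Ccnb1 promoter held 2 CCAAT matches and 0 of the CHR letters searched. Other forms of the CHR were not searched, so this does not show that Ccnb1 lacks one. The GENCODE starts of Cdk1 (69352938) and Ccnb1 (100786570) lie inside their windows. No CCAAT match overlapped a CHR match in them. Over 250 bases before the start, with both strands read, 34.5% of all 27025 mouse promoters in the RefSeq table held CCAAT, 17.4% held a CHR match and 6.21% held both. Of the 240 promoters found for the 289 genes of the G2/M and chromosome list, 64.6% held CCAAT, 32.9% a CHR match and 25.8% both. Of the 103 found for the 123 genes of the S phase list, 54.4%, 12.6% and 8.74% did. These matches are letters in a window and not shown binding sites.

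In dividing cells of the E13.5 library thinned to 5000 UMIs, the 4 genes stood at 0.947 (Mki67), 4.05 (Top2a), 4.11 (Cdk1) and 2.04 (Ccnb1) UMIs per 10000, and at 1.31, 5.01, 3.73 and 2.75 at E15.5. All were at 0 in non-dividing cells by construction. Cells just outside and inside the limits were common: 48 chondrocytes had a sum of 4 and 35 a sum of 5 at E13.5, and 44 and 29 did at E15.5. At the lower limit 350 cells had a sum of 0 and 252 a sum of 1 at E13.5, against 477 and 287 at E15.5. For the chondrocyte limit, 75 cells with Acan had 20 to under 30 Col2a1 UMIs per 10000 and 93 had 30 to under 40 at E13.5, and 46 and 36 did at E15.5.

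UMIs per cell differed between the groups, which the rule itself favours, since a raw sum of at least 5 is reached more easily by a deeper cell. The median was 19048.5 UMIs in dividing and 11256.5 in non-dividing cells at E13.5, and 15522 against 8583 at E15.5. Cells in neither group lay between, at 13717 and 11984 UMIs. Median genes per cell were 4074 and 2927 at E13.5, and 3669 and 2522 at E15.5. Every cell was therefore thinned at random to 5000 UMIs, which left out as too shallow 9 dividing and 27 non-dividing cells of the E13.5 library and 9 and 76 of the E15.5 library. The comparison then covered 505 dividing and 323 non-dividing cells at E13.5 and 424 and 401 at E15.5. After thinning the median genes per cell were 1881 and 1814 at E13.5, and 1868.5 and 1790 at E15.5. Levels below are UMIs per 10000 UMIs of these thinned cells, and a ratio is the level in dividing cells over that in non-dividing cells.

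**Figure D1:**
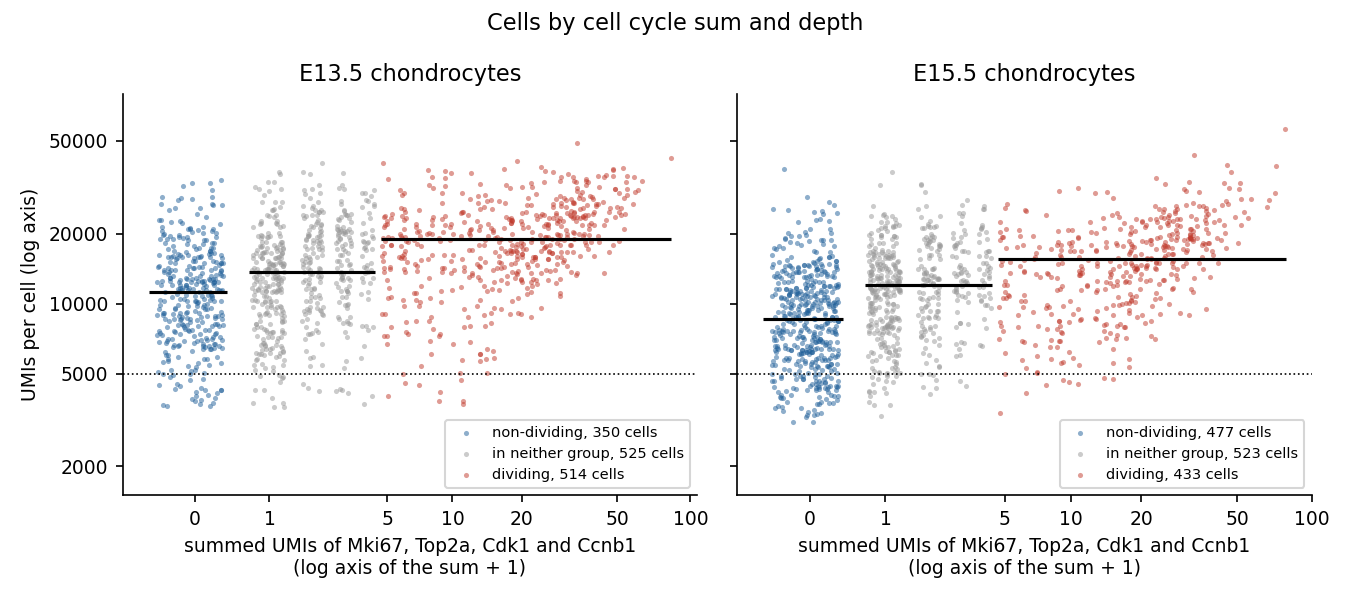
Each point is an E13.5 (left) or E15.5 (right) chondrocyte, placed by the summed UMIs of Mki67, Top2a, Cdk1 and Ccnb1 (log axis of the sum + 1) and by its UMIs (log axis), with black lines at group medians and a dotted line at 5000 UMIs. The dividing cells (red, sum of 5 or more) have a median of 19048.5 UMIs in the left panel and 15522 in the right, above the non-dividing cells (blue, sum of 0) at 11256.5 and 8583.

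The 412 genes of the S phase and G2/M lists were set apart, since they follow from how the cells were chosen. They took 5.72% of UMIs in dividing and 2.12% in non-dividing cells at E13.5, and 6.14% and 1.85% at E15.5. Cyclin A2 (Ccna2), needed for DNA replication and mitotic entry, stood at 2.22 against 0.0991 at E13.5 and at 2.47 against 0.0150 at E15.5, where 3 UMIs were found in non-dividing cells. The chromatin protein Hmgb2 stood at 18.4 against 2.84 and at 22.2 against 2.82, and the histone variant H2afz at 26.2 against 7.52 and 32.7 against 6.19. Transcripts of S phase genes remained in the non-dividing group. Before thinning, 77.4% of these cells in the E13.5 library and 65.6% in the E15.5 library had a UMI of at least 1 of 6 such genes (Pcna, Mcm5, Rrm2, Tyms, Hells and Uhrf1). Whether these cells were cycling was not tested, and 1 UMI does not show it. Pcna, the sliding clamp of DNA polymerases, was at 0.774 in non-dividing and 1.56 in dividing cells at E13.5, and at 0.673 and 1.34 at E15.5.

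Outside these lists, and outside Col2a1 and Acan, a gene was called higher or lower in dividing cells when its ratio was at least 1.5 in either direction, its whole interval lay on that side of 1, and both groups together had at least 50 UMIs. At E13.5, 397 of 6287 genes were higher (6.31%) and 366 lower (5.82%). At E15.5, 521 of 6364 were higher (8.19%) and 419 lower (6.58%). Of the 6000 genes measured in both libraries, 229 were higher in both (3.82%) and 131 lower in both (2.18%). The 229 still include genes of replication and division that the lists do not hold, among them Pkmyt1, Skp2, Wee1, Pcnt and Anapc15. Values of this set in other cells split by the same sum may thus partly follow from the rule. The 229 are 57.7% of the genes higher at E13.5 and 44.0% of those higher at E15.5, and the 131 are 35.8% and 31.3% of the genes lower there. Of the 343 genes lower at E13.5 that were measured at E15.5, 307 had a ratio below 1 there too, and of 378 higher genes 353 had a ratio above 1. The median gene lay at a log2 ratio of -0.025 at E13.5 and -0.00067 at E15.5.

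Equal totals per cell include the cell cycle genes, which take a larger part of the total in dividing cells. With those genes taken out before thinning, 496 genes were higher and 327 lower at E13.5, and 670 higher and 314 lower at E15.5. The split between higher and lower genes therefore depended on this choice.

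**Figure D2:**
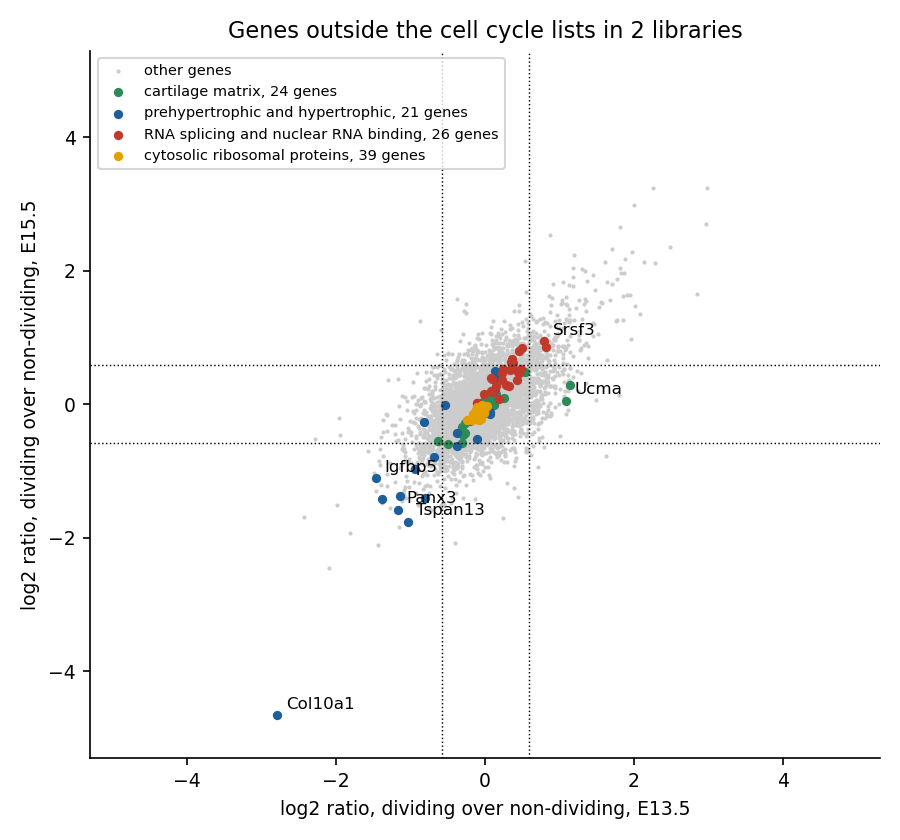
Each point is a gene outside the cell cycle lists with at least 50 UMIs in both libraries, placed by its log2 ratio of dividing over non-dividing chondrocytes at E13.5 (horizontal) and E15.5 (vertical), with dotted lines at 1.5-fold and 4 gene lists in colour. Col10a1 lies far to the lower left, prehypertrophic and hypertrophic genes (blue) spread toward it, most splicing genes (red) lie above 0 in both libraries and most cartilage matrix (green) and ribosomal protein genes (orange) near 0.

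Genes of prehypertrophic and hypertrophic cartilage were lower in dividing cells. Of the 34 genes in this list, 23 had at least 50 UMIs in each library. At E13.5, 10 of the 23 were lower in dividing cells and 0 higher, with a median log2 ratio of -0.54, and at E15.5, 12 were lower and 0 higher, with a median of -0.62. The background was 5.82% and 6.58% of genes lower. The list result changed without the late cells, those that held any UMI of Ihh, Col10a1, Panx3 or Ibsp before thinning. These 4 genes are themselves members of the list, so part of that change is fixed by the choice of cells. The late cells were 51.6% of dividing and 42.9% of non-dividing cells at E13.5, and 49.4% and 44.7% at E15.5. With them left out of both groups these 4 genes are at 0, 243 dividing and 181 non-dividing cells remain at E13.5 (212 and 208 at E15.5), 2 members were lower in each library and the medians turned to 0.14 and 0.11. Among cells of 10000 to 20000 UMIs, 7 and 12 were lower, with medians of -0.54 and -1.0. Over all genes without the late cells, 272 of 4336 were higher and 247 lower at E13.5, and 357 of 4286 and 242 at E15.5. At that depth the counts were 299 of 4085 and 196, then 334 of 4063 and 212. Fewer genes reached 50 UMIs in both settings, so their counts of list members, here and below, do not compare directly with the main counts. Lower in both libraries were Ihh, Pth1r, Bmp2, Igfbp5, Mef2c, Panx3, Tspan13, Smpd3 and Col10a1.

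Ihh (chr1:74945315-74951672, minus strand), the signal of prehypertrophic cells, stood at 0.665 (0.569 to 0.774) in dividing and 1.47 (1.29 to 1.67) in non-dividing cells at E13.5. At E15.5 it stood at 0.604 (0.504 to 0.718) and 1.56 (1.39 to 1.74). It was thus 2.21-fold lower (1.81 to 2.71) and 2.59-fold lower (2.10 to 3.20) in dividing cells. An Ihh UMI was found in 15.2% of dividing and 22.9% of non-dividing cells at E13.5, and in 13% and 23.2% at E15.5. Without thinning the shares were nearly alike, at 31.7% and 31.4%, then 22.9% and 25.6%, in cells of unequal depth. Ihh was therefore not confined to non-dividing cells. In endothelial cells of the same libraries, which should lack it, 3.81% and 4.72% held an Ihh UMI after thinning.

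Bmp2, a bone morphogenetic protein made by maturing chondrocytes, stood at 0.261 in dividing and 0.458 in non-dividing cells at E13.5 (1.75-fold lower, 1.24 to 2.48), and at 0.226 and 0.599 at E15.5 (2.64-fold lower, 1.88 to 3.78). Its E13.5 difference was lost in 6 of 15 other settings and turned when non-dividing cells with a UMI of the 6 S phase genes were left out (log2 ratio 0.48, against 64 cells). Igfbp5, which binds insulin-like growth factors, stood at 0.475 and 1.31 at E13.5 (2.76-fold lower, 2.20 to 3.48) and at 0.443 and 0.953 at E15.5 (2.15-fold lower, 1.67 to 2.78). Among cells of 10000 to 20000 UMIs only, its log2 ratios shrank to -0.25 and -0.10.

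Pth1r (chr9:110722085-110747145, minus strand), the receptor for PTHrP, stood at 1.5 (1.35 to 1.66) in dividing and 2.42 (2.19 to 2.67) in non-dividing cells at E13.5. At E15.5 it stood at 1.39 (1.24 to 1.56) and 2.40 (2.19 to 2.62), so it was 1.61-fold (1.40 to 1.86) and 1.72-fold lower (1.49 to 2.0). Its difference was not seen without the late cells: with these left out of both groups, the log2 ratio turned to 0.47 at E13.5 and 0.081 at E15.5. The transcription factor Mef2c, which promotes hypertrophy, behaved likewise. It stood at 0.768 and 1.47 at E13.5 (1.92-fold lower, 1.58 to 2.33) and at 0.684 and 1.34 at E15.5 (1.96-fold lower, 1.60 to 2.42), and its log2 ratios without the late cells were 0.39 and 0.15. Endothelial cells themselves held Mef2c in 54.3% at E13.5 and 41.5% at E15.5.

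Panx3, a channel protein of prehypertrophic cells, stood at 0.558 against 1.3 at E13.5 (2.24-fold lower, 1.80 to 2.80) and 0.321 against 0.958 at E15.5 (2.99-fold lower, 2.25 to 4.00). Smpd3, a sphingomyelinase needed for normal mineralisation of cartilage and bone, stood at 0.531 against 1.39 (2.61-fold lower, 2.10 to 3.26) and 0.363 against 0.973 (2.68-fold lower, 2.05 to 3.53). The tetraspanin Tspan13 was 2.05-fold lower (1.37 to 3.09) and 3.38-fold lower (2.3 to 5.10). Ihh, Smpd3 and Col10a1 passed the rule of size in both libraries under all 14 other ways of choosing, thinning or filtering the cells that gave them a value. The setting without the late cells gave none of them a value, since Ihh and Col10a1 are at 0 there by choice. Whether the Smpd3 difference holds without the late cells is therefore not shown. Panx3 missed it in 1 of 14 at E13.5.

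Col10a1 (chr10:34389981-34397085, plus strand) marks mature hypertrophic cells. It stood at 0.321 (0.255 to 0.399) in dividing and 2.22 (1.99 to 2.46) in non-dividing cells at E13.5, which is 6.91-fold lower (5.42 to 8.91). At E15.5 it stood at 0.349 (0.274 to 0.438) and 8.83 (8.42 to 9.25), which is 25.3-fold lower (20 to 32.4). A few cells carried this difference, since the 10 non-dividing cells richest in Col10a1 held 73.7% of its UMIs at E13.5 and 79.0% at E15.5. The richest non-dividing cell held 56 and 235 UMIs of 5000, and the richest dividing cell 17 and 12. Shares of cells with a UMI differed less, at 6.73% against 11.5% and at 10.8% against 21.7%, and without thinning at 12.5% against 15.4% and at 26.3% against 28.9%. Endothelial cells held a Col10a1 UMI in 1.90% and 1.89%.

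Spp1 and Ibsp, genes of mineralising cartilage, were seen mainly at E15.5. Spp1 (osteopontin) stood at 0.358 in dividing and 11.7 in non-dividing cells there (32.7-fold lower, 26.0 to 41.7), and the 10 richest non-dividing cells held 96.1% of its UMIs. Its share of cells, 16.7% and 20.2%, was at or below the 22.6% of endothelial cells and cannot be told from free RNA. Ibsp (bone sialoprotein) had 3 UMIs in dividing and 179 in non-dividing cells at E15.5, a 63.1-fold lower level (21.2 to 309). At E13.5 Spp1 had 5 and 2 UMIs and Ibsp 11 and 9, too few for the rule. Without the late cells the log2 ratio of Spp1 at E15.5 shrank to -0.13.

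Osteoblast markers moved with these genes, and the osteoblast list shares Ibsp, Spp1, Sp7, Alpl and Phex with the hypertrophic list. Its 10 members summed to 0.800 in dividing and 1.39 in non-dividing cells at E13.5, with 3 at 0 in both groups, and to 1.70 and 14.1 at E15.5, with 1 at 0. The part of bone cells in the difference was not tested. Sp7 (osterix), needed for osteoblasts, had 25 and 33 UMIs at E13.5 (2.06-fold lower, 1.19 to 3.62) and lost the call in another random draw of the thinning (log2 ratio -0.45). Ifitm5, also on the osteoblast list, was called lower at E13.5 too. It kept that call in the 9 other settings that gave it a value, with log2 ratios of -2.80 to -2.07. Runx2, the regulator of hypertrophy and bone, stood at 0.345 and 0.372 at E13.5 (ratio 0.927, 0.660 to 1.31) and 0.255 and 0.364 at E15.5 (0.700, 0.483 to 1.01) and was not called in either library. Vegfa, the vessel growth factor of hypertrophic cartilage, had in all 55 UMIs in the E13.5 library and 50 in the E15.5 library, with ratios of 0.768 (0.436 to 1.36) and 0.743 (0.405 to 1.35), not called.

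**Figure D3:**
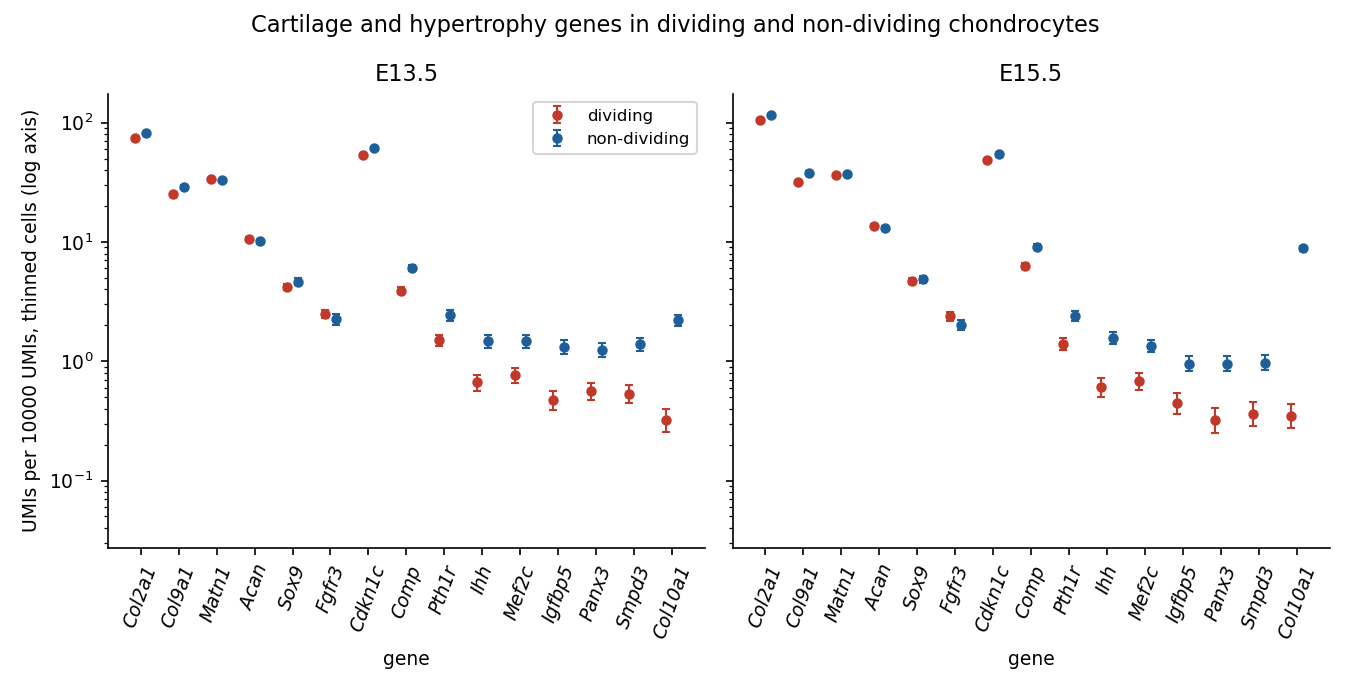
Points are levels of 15 genes in UMIs per 10000 UMIs of thinned cells (log axis) in dividing (red) and non-dividing (blue) chondrocytes at E13.5 (left) and E15.5 (right), with exact 95% Poisson intervals that cover counting error only. Matrix genes on the left lie almost on each other, and the gap widens toward Col10a1 on the right, at 0.321 against 2.22 and 0.349 against 8.83.

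Cells rich in late cartilage transcripts were found mostly, but not only, outside the dividing group. A cell with 10 or more UMIs of Ihh, Col10a1, Panx3 and Ibsp after thinning was found 6 times among 505 dividing cells at E13.5 (1.19%, 0.437 to 2.57%) and 27 times among 323 non-dividing cells (8.36%, 5.58 to 11.9%). Among the 504 cells in neither group there were 26 (5.16%, 3.40 to 7.47%). At E15.5 there were 3 among 424 dividing cells (0.708%, 0.146 to 2.05%), 32 among 496 in neither group (6.45%, 4.45 to 8.99%) and 36 among 401 non-dividing cells (8.98%, 6.37 to 12.2%). Without thinning the shares in dividing and non-dividing cells were 8.95% and 15.1% at E13.5, and 6.00% and 13% at E15.5. A single UMI of any of the 4 genes was common in all groups, at 27.9% of dividing and 32.5% of non-dividing cells at E13.5 and 24.5% and 37.2% at E15.5, and without thinning it was more common in dividing cells, at 51.6% against 42.9% and 49.4% against 44.7%.

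Along the summed UMIs of the 4 cycle genes, Col10a1 and Ihh stepped down between the cells with a sum of 1 to 4 and those with 5 to 9. In a separate draw of the thinning, Col10a1 at E13.5 stood at 2.34 with a sum of 0, 1.42 with 1 to 4, 0.435 with 5 to 9, 0.193 with 10 to 19 and 0.195 with 20 or more. At E15.5 the order was 8.62, 6.29, 0.788, 0.250 and 0.328. Ihh went from 1.73 and 1.56 to 0.758, 0.552 and 0.695 at E13.5, and from 1.53 and 1.45 to 0.525, 0.485 and 0.624 at E15.5. In Col10a1 and Ihh the cells with a sum of 1 to 4 lay closer to those with 0 than to those with 5 to 9. Other genes declined more gradually at E13.5, Panx3 over 1.13, 0.881, 0.661, 0.386 and 0.432 and Smpd3 over 1.43, 1, 0.661, 0.648 and 0.508. At E15.5 Panx3 fell from 0.847 with 1 to 4 to 0.343 with 5 to 9, and Smpd3 from 0.782 to 0.364. Pcna had a different course, with 0.737, 1.23, 1.79, 1.92 and 1.13 at E13.5 and 0.608, 1.02, 1.82, 1.5 and 0.847 at E15.5, so it was highest in the middle of the range. Fgfr3, the FGF receptor that restrains chondrocyte division, kept between 2.14 and 2.58 at E13.5 and between 1.91 and 2.74 at E15.5 over the 5 bins.

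**Figure D4:**
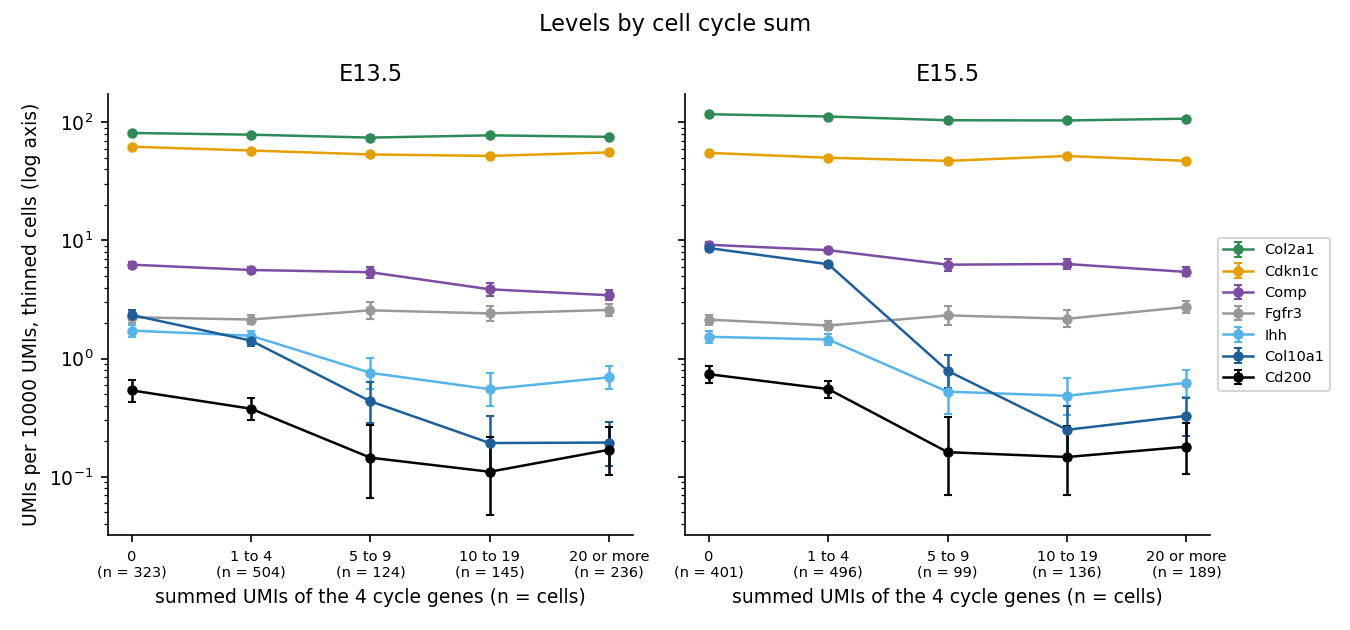
Lines give levels of 7 genes in UMIs per 10000 UMIs of thinned cells (log axis) in bins of the summed UMIs of the 4 cycle genes at E13.5 (left) and E15.5 (right), with exact 95% Poisson intervals and the number of cells in each bin below. Col10a1, Ihh and Cd200 drop from the second to the third bin, Comp declines over the range and Col2a1, Cdkn1c and Fgfr3 stay nearly level.

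Genes of the cartilage matrix differed little at E13.5 and E15.5. Apart from Col2a1 and Acan, 24 genes of this list were measured in each library. At E13.5, 2 were higher and 1 lower in dividing cells, with a median log2 ratio of -0.056, and at E15.5, 0 were higher and 1 lower, with a median of -0.17. Of all genes, 6.31% and 8.19% were higher and 5.82% and 6.58% lower, so the counts alone do not set this list apart. Matn1 stood at 34.0 and 32.9 at E13.5 (ratio 1.03, 0.999 to 1.07) and at 36.2 and 37.3 at E15.5 (0.971, 0.941 to 1.00). Col9a1 was at 25.3 and 29.1 (0.869, 0.837 to 0.902), then at 31.9 and 38.2 (0.837, 0.810 to 0.865). The fibril collagen Col11a1 had ratios of 0.893 (0.857 to 0.931) and 0.888 (0.858 to 0.919). Hapln1, the link protein that ties aggrecan to hyaluronan, had ratios of 0.807 (0.766 to 0.851) and 0.794 (0.753 to 0.837). These intervals lie below 1, but the ratios are short of 1.5-fold.

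The genes of the rule itself are a description only. Col2a1 stood at 75.2 in dividing and 81.9 in non-dividing cells at E13.5 and at 106 and 117 at E15.5, and Acan at 10.6 and 10.2, then at 13.6 and 13.1. The called matrix genes were small or near the limit. Comp, a pentameric matrix protein, stood at 3.91 and 6.04 at E13.5 (1.55-fold lower, 1.41 to 1.69) and at 6.26 and 9.15 at E15.5 (1.46-fold lower, 1.36 to 1.57, short of the rule), and its E13.5 call was lost in 6 of 15 other settings. Cytl1, a secreted protein of cartilage, was 1.41-fold lower (1.33 to 1.5) at E13.5 and 1.51-fold lower (1.42 to 1.61) at E15.5, and the E15.5 call was lost in 6 of 15 settings. Ucma, a cartilage protein of the upper growth plate, was 2.12-fold higher in dividing cells at E13.5 (1.3 to 3.75, on 82 UMIs) and at a ratio of 1.04 (0.787 to 1.37) at E15.5. Matn2 was likewise 2.21-fold higher (1.33 to 3.83) at E13.5 and at 1.23 (0.812 to 1.86) at E15.5, and its E13.5 log2 ratio turned to -0.060 with cells thinned to 3000 UMIs.

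Among the regulators of chondrocyte identity, 14 of 21 were measured at E13.5, 15 at E15.5, and Mef2c was the sole gene called in either library, on the lower side. That count is near the 5.82% and 6.58% of all genes that were lower. Sox9 stood at 4.21 and 4.66 (0.902, 0.821 to 0.992) and then at 4.71 and 4.85 (0.971, 0.888 to 1.06). Its partner Sox5 had ratios of 0.838 (0.716 to 0.981) and 0.832 (0.718 to 0.963), and Sox6 of 0.724 (0.563 to 0.933) and 0.986 (0.759 to 1.28). Fgfr3 was at 2.48 and 2.26 (1.10, 0.961 to 1.2) and at 2.38 and 2.03 (1.17, 1.03 to 1.34). None of the 4 passed the rule of size.

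Genes of round, periarticular and resting cartilage, including those of the forming joint, were lower in dividing cells mainly at E13.5. There 8 of 14 measured members were lower (background 5.82%) and 1 higher (Ucma), with a median log2 ratio of -0.73, and at E15.5, 3 of 17 were lower (Apoe, Wif1 and Cytl1, background 6.58%) and 0 higher, with a median of -0.36. Without the late cells 5 and 2 were lower, and among cells of 10000 to 20000 UMIs 0 and 1 were, where the E13.5 median turned to 0.40. Of all genes, 247 of 4336 and 242 of 4286 were lower in the first setting, and 196 of 4085 and 212 of 4063 in the second. Gdf5, the growth factor of the joint interzone, had 18 UMIs in dividing and 56 in non-dividing cells at E13.5 (4.86-fold lower, 2.82 to 8.79), and 29 of the 56 lay in 1 cell. At E15.5 it had 31 and 42 UMIs (ratio 0.698, 0.424 to 1.14). Pthlh, which encodes PTHrP, had 15 and 37 UMIs at E13.5 (ratio 0.259, 0.132 to 0.484) and 23 and 30 at E15.5 (0.725, 0.402 to 1.29). The growth arrest gene Gas1 was at 0.398 (0.293 to 0.536) at E13.5 and 0.902 (0.658 to 1.23) at E15.5, and the transcription factor Sox4 at 0.610 (0.514 to 0.724) and 0.673 (0.571 to 0.793), the second not called. Among cells of 10000 to 20000 UMIs the E13.5 log2 ratios turned to 0.64 for Gas1, 0.51 for Sox4 and 0.72 for Sfrp2, a secreted WNT antagonist. Whether the 2 stages differ in these genes was not tested.

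Of the WNT genes, 6 of 12 measured members were lower in dividing cells at E13.5 (median -0.52, background 5.82%) and 3 of 13 at E15.5 (median -0.19, background 6.58%), and 0 were higher. Without the late cells 3 and 1 were lower, with medians of -0.19 and -0.014. Among cells of 10000 to 20000 UMIs the same counts were lower, 1 was higher at E13.5, and the medians turned to 0.13 and 0.14. Of all genes, 247 of 4336 and 242 of 4286 were lower without the late cells. At that depth 196 of 4085 and 212 of 4063 were lower, and 299 of 4085 higher at E13.5. The secreted WNT antagonist Frzb stood at 0.246 and 0.693 at E13.5 (2.82-fold lower, 2.05 to 3.92) and at 0.259 and 0.529 at E15.5 (2.04-fold lower, 1.46 to 2.88). Wif1, another secreted antagonist, had 27 and 43 UMIs at E13.5 (2.49-fold lower, 1.5 to 4.19) and 38 and 84 at E15.5 (2.34-fold lower, 1.58 to 3.53). The ligand Wnt4 had ratios of 0.559 (0.405 to 0.769) and 0.416 (0.279 to 0.609). The receptor Fzd9, the ligand Wnt5a and Sfrp2 were called at E13.5 only.

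Genes that slow or leave the cell cycle gave a mixed account. Of the list of D cyclins, cyclin-dependent kinase inhibitors and exit genes, 4 of 16 measured members were lower and 0 higher at E13.5 (median -0.38), and 6 of 17 lower and 2 higher at E15.5 (median -0.39), beside 5.82% and 6.58% of all genes lower and 6.31% and 8.19% higher. Without the late cells 5 and 3 were lower and 0 higher, and among cells of 10000 to 20000 UMIs 1 and 4 were lower and 0 higher. Of all genes, 247 of 4336 and 242 of 4286 were lower without the late cells. At that depth 196 of 4085 and 212 of 4063 were. The inhibitor Cdkn2c (p18), counted with the G2/M genes set apart, lay on the other side, with 129 UMIs in dividing and 1 in non-dividing cells at E13.5 (ratio 82.5, 14.5 to 3284) and 195 and 10 at E15.5 (18.4, 9.82 to 39.1). The most abundant inhibitor, Cdkn1c (p57), stayed high in dividing cells at 54.0 (53.1 to 54.9), against 61.9 (60.6 to 63.1) in non-dividing cells at E13.5. At E15.5 it stood at 48.4 (47.5 to 49.3) and 54.9 (53.9 to 56), giving ratios of 0.872 (0.85 to 0.895) and 0.881 (0.857 to 0.905), and every cell of both groups held a UMI. It was thus lower in dividing cells by less than 1.5-fold. Endothelial cells held a Cdkn1c UMI in 78.1% and 75.5%, at levels of 5.31 and 5.19, and whether this is free RNA or their own was not tested.

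Cdkn1a (p21), the inhibitor induced by p53, stood at 0.313 and 0.570 at E13.5 (1.82-fold lower, 1.33 to 2.49) and at 0.307 and 0.514 at E15.5 (1.68-fold lower, 1.22 to 2.32). Without the late cells its log2 ratio turned to 0.61 and 0.69. The antiproliferative gene Btg2 had ratios of 0.653 (0.516 to 0.827) and 0.559 (0.441 to 0.706), and the p53 target Ccng1 of 0.552 (0.401 to 0.759) and 0.546 (0.362 to 0.813). The D cyclins, which carry growth signals into the cycle, were not higher in dividing cells: Ccnd1 had ratios of 0.725 (0.605 to 0.870) and 0.744 (0.608 to 0.910), Ccnd2 of 0.709 (0.621 to 0.808) and 0.609 (0.532 to 0.697), and Ccnd3 of 0.878 (0.786 to 0.981) and 0.764 (0.688 to 0.849). Only Ccnd2 at E15.5 passed the rule. E2f4 and E2f5, at 1.62 (1.14 to 2.32) and 1.60 (1.03 to 2.55) at E15.5, lost their calls in 11 and 12 of 15 other settings.

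In the hedgehog pathway the ligand and the response went opposite ways at E15.5. Gli1, whose transcription is a readout of hedgehog signalling, had 52 UMIs in dividing and 21 in non-dividing cells there (ratio 2.34, 1.39 to 4.09), while Ihh was lower. Gli3, the main repressor, had a ratio of 1.79 (1.24 to 2.62) and the co-receptor Cdon of 1.94 (1.12 to 3.44). At E13.5 Gli1 had 42 and 19 UMIs (1.41, 0.804 to 2.57) and Gli3 a ratio of 0.883 (0.605 to 1.30), neither called, and Cdon had 44 UMIs, under the limit. The list had 2 of 7 members lower at E13.5 (Gas1 and Ihh), and 3 of 9 higher and 2 lower (Evc2 and Ihh) at E15.5, where without the late cells 0 were called in either direction. Of all genes, 5.82% were lower at E13.5, and 8.19% were higher and 6.58% lower at E15.5. The Gli3 call was lost in 9 of 15 other settings, and that of Gli1 in 2 of 12.

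The FGF response genes Dusp6 and Etv5, which are induced by FGF signalling, were lower in both libraries. They were 2 of 6 measured members at E13.5 and 2 of 7 at E15.5, beside 5.82% and 6.58% of all genes lower. Dusp6 had ratios of 0.651 (0.444 to 0.955) and 0.538 (0.349 to 0.818), and Etv5 of 0.650 (0.449 to 0.941) and 0.640 (0.464 to 0.877). Both rest on few UMIs: Etv5 lost its E15.5 call in 14 of 15 other settings and Dusp6 in 9 of 13, and the Etv5 log2 ratio turned to 0.072 there without the late cells and to 0.33 at E13.5 among cells of 10000 to 20000 UMIs. Of the PTHrP list, 3 of 8 were lower at E13.5 (Pthlh, Mef2c and Pth1r) and 2 of 8 at E15.5 (Mef2c and Pth1r), beside the same shares of all genes. Without the late cells 0 were lower in either library. Gnas, the G protein subunit behind the receptor, had ratios of 0.931 (0.894 to 0.970) and 0.917 (0.878 to 0.958).

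**Figure D5:**
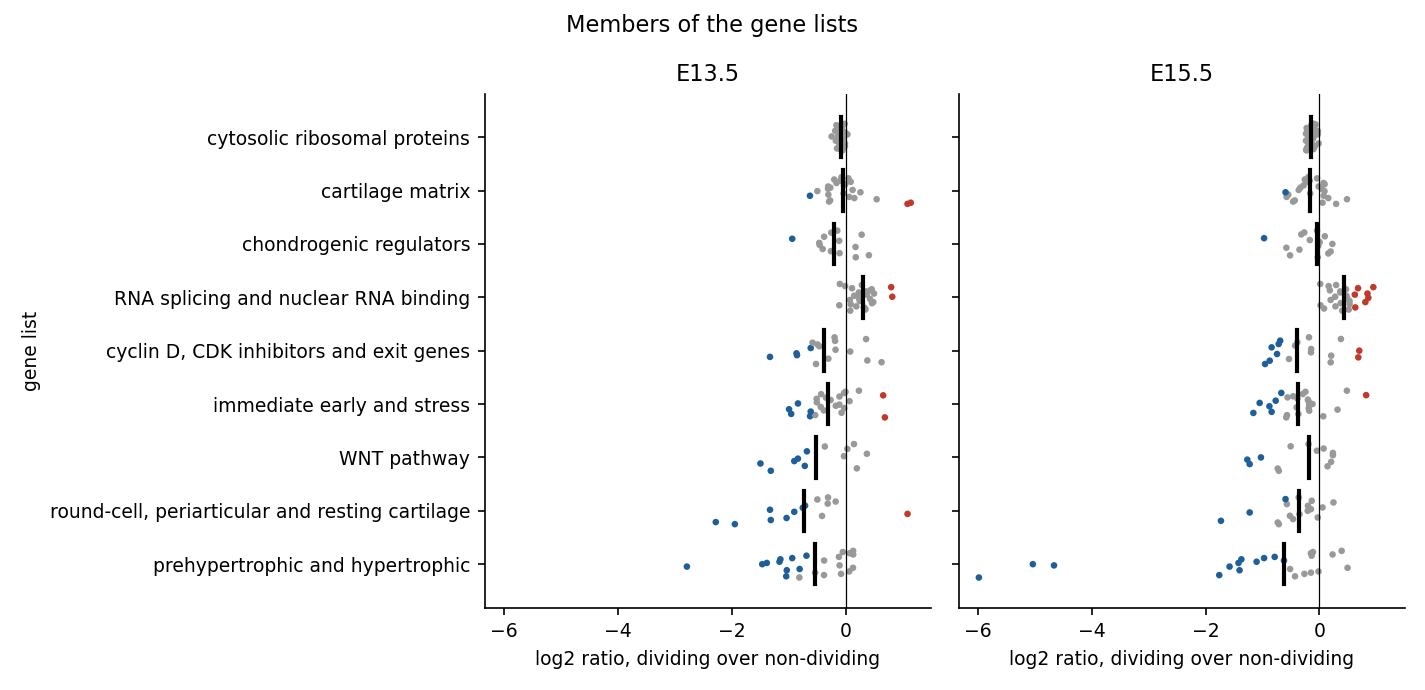
Each point is a measured member of a gene list, placed by its log2 ratio of dividing over non-dividing chondrocytes at E13.5 (left) and E15.5 (right), in red or blue where it was called higher or lower in dividing cells and in grey otherwise, with a black bar at the list median. The medians are 0.30 and 0.43 for splicing genes, -0.54 and -0.62 for prehypertrophic and hypertrophic genes and -0.73 and -0.36 for round, periarticular and resting cartilage genes, and ribosomal protein genes have no called member.

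Of the 26 genes of RNA splicing and nuclear RNA binding, all measured, 7 were higher in dividing cells at E15.5, against a background of 8.19% of genes higher, and 0 were lower. At E13.5, 2 were higher, a share near the background of 6.31%, and 0 lower. The median log2 ratio was 0.30 at E13.5, with 3 of the 26 below 0, and 0.43 at E15.5, with 0 below. Srsf3, a splicing factor known to be needed for proliferation, stood at 6.97 and 4.01 at E13.5 (ratio 1.74, 1.59 to 1.90) and at 5.99 and 3.11 at E15.5 (1.93, 1.75 to 2.12). Hnrnpab had ratios of 1.76 (1.57 to 1.99) and 1.81 (1.61 to 2.05). At E15.5 the splicing factor Srsf7 at 1.75 (1.51 to 2.02) and the small nuclear ribonucleoprotein Snrpd1 at 1.79 (1.61 to 2.0) passed the rule in all 15 other settings, whereas Srsf1, Srsf2 and Hnrnpa3, at 1.54 to 1.60, were lost in 8 or 9 of 15. At E13.5 the same 5 genes had ratios of 1.27 to 1.41 and were not called.

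Lists of protein synthesis and respiration had almost no called member. None of 39 cytosolic ribosomal protein genes was called in either library, with medians of -0.091 and -0.14, and they summed to 1437 and 1535 UMIs per 10000 at E13.5 and 1428 and 1574 at E15.5. Of 23 measured nucleolar genes, 0 were called at E13.5 and 1 was lower at E15.5 (Mybbp1a). None of 30 nuclear genes of mitochondrial respiration and none of 13 mitochondrially encoded genes was called in either library.

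The 12 highest ranked genes higher in both libraries, by the smaller of the 2 log2 ratios, were Chtf18, Pkmyt1, Eldr, Zfp367, 2810408I11Rik, Cep89, Psmc3ip, Nup35, Ndc1, Slc25a10, Smtn and Dnajc9. Several are known for work in replication or division and were not in the lists set apart, so they extend those lists. Chtf18 loads the Pcna clamp and had 66 UMIs in dividing and 1 in non-dividing cells at E13.5 (ratio 42.2, 7.32 to 1692), and 50 and 1 at E15.5 (47.3, 8.11 to 1905). Pkmyt1, a kinase that inhibits Cdk1, had ratios of 7.89 (4.01 to 17.7) and 9.46 (4.58 to 22.7). Dnajc9, a histone chaperone, was the most abundant, at 1.87 and 0.526 at E13.5 (3.54, 2.81 to 4.52) and 1.78 and 0.454 at E15.5 (3.92, 3.11 to 4.98). The nuclear pore genes Nup35 and Ndc1 had ratios of 4.01 (2.11 to 8.41) and 3.91 (2.36 to 6.84) at E13.5, and 7.97 (3.64 to 20.7) and 4.85 (2.77 to 9.09) at E15.5. Psmc3ip, a recombination cofactor, had 4.88 (2.59 to 10.2) and 4.35 (2.46 to 8.19), and the mitochondrial dicarboxylate carrier Slc25a10 had 3.67 (2.10 to 6.83) and 4.53 (2.52 to 8.72). All 12 kept their calls in both libraries in the 7 to 15 other settings that gave them a value.

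The promoters of the 229 genes higher in both libraries were found for 187. CCAAT was present in 46.5% of them and a CHR match in 13.9%, beside 34.5% and 17.4% of all promoters. Of the 108 found for the 131 genes lower in both, 37.0% held CCAAT and 7.41% a CHR match. Nothing is said by this about binding of any factor.

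The 12 highest ranked genes lower in both were Col10a1, Cd200, Sgms2, Serinc5, Ccdc80, Pltp, Smpd3, Slc37a4, Smim14, Fn1, Wif1 and Dlgap4, of which Col10a1 and Smpd3 belong to the hypertrophic list. Cd200 (chr16:45382135-45409053, minus strand), a membrane glycoprotein, had 37 UMIs in dividing and 101 in non-dividing cells at E13.5 (4.27-fold lower, 2.90 to 6.40) and 27 and 140 at E15.5 (5.48-fold lower, 3.61 to 8.61). Its shares of cells were 6.14% and 18.9%, then 5.19% and 18.2%, and without thinning 14.2% and 25.7%, then 15.5% and 23.7%. Endothelial cells, which are known to express it, held a Cd200 UMI in 21% and 30.2%. Sgms2, a sphingomyelin synthase, was 3.51-fold lower (2.63 to 4.72) and 3.80-fold lower (2.46 to 6.05), so with Smpd3 both an enzyme that makes sphingomyelin and one that breaks it down were lower in dividing cells.

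Smim14, a small membrane protein, was the least concentrated of the 12, with 17.3% and 16.3% of its non-dividing UMIs in the 10 richest cells. It stood at 0.507 and 1.40 at E13.5 (2.76-fold lower, 2.21 to 3.46) and at 0.623 and 1.53 at E15.5 (2.45-fold lower, 1.99 to 3.03). A Smim14 UMI was found in 22.0% of dividing and 44.3% of non-dividing cells, then in 25.7% and 46.1%, and without thinning in 56.4% and 68.0%, then in 53.3% and 62.1%. Fn1 (fibronectin) was 2.43-fold lower (1.92 to 3.09) and 2.94-fold lower (2.45 to 3.53), and its log2 ratios shrank to -0.21 and -0.31 without the late cells. Slc37a4, the glucose-6-phosphate transporter, was 2.61-fold lower (1.48 to 4.71) at E13.5 and turned to a log2 ratio of 0.40 with cells thinned to 3000 UMIs.

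Several immediate early genes, which cells induce within minutes of a stimulus, were lower in dividing cells of the same suspensions. Of the stress and immediate early list, 5 of 24 measured members were lower and 2 higher at E13.5 (median -0.31), and 6 of 25 lower and 1 higher at E15.5 (median -0.37), beside 5.82% and 6.58% of all genes lower and 6.31% and 8.19% higher. Without the late cells 10 and 8 were lower, with medians of -0.55 and -0.39, beside 247 of 4336 and 242 of 4286 genes in all. Junb stood at 1.26 and 2.26 at E13.5 (1.79-fold lower, 1.54 to 2.09) and 1.44 and 2.98 at E15.5 (2.07-fold lower, 1.80 to 2.38). Zfp36, which destabilises mRNA of early response genes, was 1.94-fold lower (1.49 to 2.54) and 2.23-fold lower (1.73 to 2.91), and Atf3 was 1.99-fold lower (1.63 to 2.44) and 1.84-fold lower (1.53 to 2.22). Fos, the most abundant with Jun, had ratios of 0.741 (0.706 to 0.777, not called) and 0.629 (0.596 to 0.663), and Jun of 0.998 (0.95 to 1.05) and 0.817 (0.770 to 0.866), not called. The chaperone Hsp90aa1 went the other way, at 1.58 (1.46 to 1.70) and 1.77 (1.63 to 1.92).

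Marker genes of muscle, endothelium, blood, Schwann cells and epithelium were low in both groups. Summed over each list, muscle genes stood at 0.198 in dividing and 0.241 in non-dividing cells at E13.5 and 0.288 and 0.399 at E15.5, and endothelial genes at 0.479 and 0.539, then 0.693 and 0.574. Blood and immune genes stood at 0.166 and 0.204, then 0.179 and 0.469, and Schwann cell genes at 0.341 and 0.520, then 0.274 and 0.349. Epithelial genes were higher in dividing cells, at 0.455 and 0.303, then 0.627 and 0.344. Other lists were not low: fibroblast and perichondrium genes stood at 4.08 and 4.76, then 7.60 and 7.97, and tendon genes at 6.57 and 8.67, then 6.40 and 9.64. The tendon list holds the immediate early gene Egr1, which stood at 2.58 and 3.67 at E13.5 (ratio 0.703, 0.628 to 0.787, not called) and at 2.46 and 4.18 at E15.5 (0.587, 0.525 to 0.656, called lower). The numbers of listed markers at 0 in both groups were 1 of 10 for muscle, 2 of 11 for blood and immune cells, 1 of 12 for fibroblasts and 1 of 7 for Schwann cells at E13.5, and 1 of 11 for blood and 1 of 7 for Schwann cells at E15.5. The part of these RNAs in the differences above was not tested.

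In the E18.5 library, 40 dividing and 116 non-dividing chondrocytes reached 5000 UMIs, and 54 non-dividing and 0 dividing cells were too shallow. Of 1889 genes measured, 199 were higher (10.5%) and 131 lower (6.93%) in dividing cells. Of the 131 genes lower in both earlier libraries, 46 were measured at E18.5, of which 43 had a ratio below 1 and 22 were called lower. Of the 229 higher genes, 47 were measured, of which 46 had a ratio above 1 and 38 were called higher. Ihh stood at 0.250 in dividing and 2.26 in non-dividing cells (9.03-fold lower, 3.77 to 28.3), Pth1r at 1.00 and 2.59 (2.59-fold lower, 1.62 to 4.36), and Col10a1 had 1 UMI against 140 (ratio 0.0207, 0.000521 to 0.117). No dividing cell of 40 held 10 or more UMIs of the late genes, which allows a share of up to 7.5%, against 14 of 116 non-dividing cells (12.1%, 6.76 to 19.4%). Splicing genes had 10 of 25 measured members higher and 0 lower. Of 24 measured cartilage matrix genes, 7 were lower and 2 higher, with a median log2 ratio of -0.38. Cdkn1c stood at 43.0 and 35.5 (ratio 1.21, 1.12 to 1.31), on the other side of 1 than in the earlier libraries, and Wif1 had a ratio of 1.04 (0.698 to 1.52).

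Cells outside the chondrocyte rule, with no Acan UMI and at least 10 Col1a1 UMIs per 10000, were split by the same cycle sum in the same libraries. Their Col2a1 was not limited, so cartilage cells in which no Acan UMI was found were not kept out. There were 28 dividing and 54 non-dividing such cells of 5000 UMIs at E13.5, and 44 and 57 at E15.5. Of the genes higher in dividing chondrocytes of both libraries, 98 had at least 20 UMIs in them in the earlier library and 116 in the later, and 87 and 107 had a ratio above 1. Their median log2 ratio was 0.68 in both, beside 0.82 and 0.88 for the same genes in the chondrocytes. Of the genes lower in dividing chondrocytes, 44 and 55 were measured, and 29 and 36 had a ratio below 1, with a median of -0.21 in both, beside medians of -0.79 and -0.84 for the same genes in the chondrocytes. Of these, 3 were called lower and 2 higher at E13.5, and 10 and 0 at E15.5. Of the genes higher in dividing chondrocytes, 35 and 40 were called higher in these cells and 0 lower. The shares of all genes called, or on either side of 1, in these cells are not given. The counts therefore have no background beside them. Both sets were chosen by their ratios in the chondrocytes, so larger medians there follow in part from that choice. Srsf3 had ratios of 1.61 and 2.02 in these cells and Dnajc9 of 2.31 and 1.62. Ihh, Col10a1 and Panx3 had 0 to 4 UMIs in each group of them and could not be compared. Whether chondrocytes and these cells differ in their response was not tested.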

How the data were processed

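The deposited values are whole-number UMI counts for each gene in each cell barcode. The submitters' processing notes name Cell Ranger, Seurat 2.3.4 and the build mm10, without saying which step each served. The Cell Ranger version, the calling of cell barcodes and any doublet filter were not given in the sources used here. The labels' protocols name the 10x 3' kit of version 2 chemistry. Counts on a 3' kit are compared between groups of cells and not between genes per length.

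A cell was kept if it had 200 genes or more and if mitochondrially encoded genes gave no more than 10% of its UMIs, which left 9958 of 10272 barcodes. No doublet caller was run, and an alternative left out the deepest cells and cells with 3 or more UMIs of muscle, endothelial, blood or epithelial markers. Each chondrocyte was thinned without replacement to 5000 UMIs with NumPy 2.4.6, and UMIs were summed per group. Ratios have exact conditional binomial intervals, levels exact Poisson and shares exact Clopper-Pearson intervals (SciPy 1.17.1), all at 95% and covering counting error only. A share of 0 is given with the limit that 3 counts allow. With 1 library per stage there was no test. The called set was a fixed rule of size. It was checked on simulated data in which all cells of a group shared the same expression profile. That check therefore does not cover genes whose UMIs lie mostly in a few cells.

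The named genes were the 12 with the largest smaller log2 ratio of both libraries in each direction, list members called in either library, the most abundant list members, and Col2a1, Acan, Cdkn1c, Ihh, Col10a1, Fgfr3, Pth1r, Sox9 and the 4 cycle genes. There were 34 gene lists, 2 of them the cell cycle lists that were set apart, for which 123 of 125 and 289 of 304 listed symbols were matched, with 28 of 30 for cartilage matrix and every symbol of the other lists. Members and lists were chosen with earlier results of these data known. Endothelial cells used for the level of free RNA had at least 3 UMIs of Pecam1, Cdh5 and Kdr, and numbered 105 at E13.5 and 106 at E15.5, with median depths of 11601 and 10160.5 UMIs. Gene positions are from GENCODE vM21 on GRCm38, where all the genes placed are protein-coding, and promoters from RefSeq on GRCm38.p6. Alternatives changed the thinning, the cycle limits, the chondrocyte rule, the cells left out and the rule of size, 1 at a time.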

Additional observations from a re-analysis of the deposited data

Results flagged for a closer look

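Of the genes outside the cell cycle lists, 4 passed the rule of size in opposite directions in the E13.5 and E15.5 libraries. Klhl7, an adaptor of a ubiquitin ligase, was higher in dividing cells at E13.5 (log2 ratio 0.64, 83 against 34 UMIs) and lower at E15.5 (-0.63, 41 against 60). Emb (embigin, a membrane glycoprotein) was higher at E13.5 (1.62, 48 against 10) and lower at E15.5 (-0.78, 29 against 47). Rbp4, the carrier of retinol, was higher at E13.5 (0.71, 64 against 25) and lower at E15.5 (-0.94, 43 against 78). Rnf40, a ligase that ubiquitinates histone H2B, was lower at E13.5 (-0.88, 23 against 27) and higher at E15.5 (1.24, 40 against 16). Each rests on fewer than 130 UMIs a library, and the difference between the libraries was not tested. At E18.5 Rbp4 had a log2 ratio of -0.081 and was not called, and the other 3 had too few UMIs.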

How the results depend on the processing

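No paired analysis was possible because each stage is 1 library and both groups of cells come from it. The counts of called genes (397 higher and 366 lower at E13.5, 521 and 419 at E15.5) stayed within 1.5 times except where the rule or the cells tested changed. A limit of 2-fold gave 142 and 89 at E13.5 and 171 and 114 at E15.5, a fold limit below 1.5 gave 639, 636, 801 and 682, and a minimum of 200 UMIs gave 106, 71, 147 and 92. Without thinning 672 genes were lower at E13.5 and 701 at E15.5, with 9379 and 9125 genes tested. Without late cartilage cells 242 were lower at E15.5, with 4286 genes tested. Among cells of 10000 to 20000 UMIs, a setting chosen after seeing the data, 196 were lower at E13.5, and 334 higher and 212 lower at E15.5, with fewer cells and genes.

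Of 180 called values of named genes, 69 kept their call in every setting that gave them a value, and 111 lost it in at least 1. The settings of fold and UMI minimum were not counted. Log2 ratios that turned sign, for which the cause was not tested, were as follows. Thinned to 3000 UMIs, Slc37a4 (0.40), Igfbp7 (0.0075) and Matn2 (-0.0596) turned at E13.5. With cell cycle genes out, Mmp16 turned at E15.5 (0.0104). With cells that held a UMI of the 6 S phase genes left out of the non-dividing group, Bmp2 (0.48), Lss (0.0199) and Ltbp1 (-0.29) turned at E13.5. With a stricter chondrocyte rule, E2f4 turned at E15.5 (-0.0047), and with the deepest and mixed cells left out, Arl13b did (-0.0509). Without late cells, Pth1r (0.47), Cdkn1a (0.61), Mef2c (0.39) and Tmsb4x (0.0635) turned at E13.5, and Pth1r (0.0808), Cdkn1a (0.69), E2f5 (-0.20), Etv5 (0.0721) and Mef2c (0.15) at E15.5. Among cells of 10000 to 20000 UMIs, Etv5 (0.33), Gas1 (0.64), Serpine2 (0.16), Sfrp2 (0.72) and Sox4 (0.51) turned at E13.5, and Igfbp7 (0.12) and Mmp16 (0.52) at E15.5.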

Other observations

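The counts of list members here stand beside 6.31% of all genes higher and 5.82% lower at E13.5, and 8.19% and 6.58% at E15.5. Among surface and cytoskeletal genes, Tagln2, an actin-binding protein, was higher in dividing chondrocytes of both libraries, at 1.83 against 0.960 UMIs per 10000 at E13.5 (ratio 1.90, 1.58 to 2.3) and 1.37 against 0.698 at E15.5 (1.97, 1.60 to 2.42). The adhesion molecule Ncam1 had ratios of 1.5 (1.08 to 2.12) and 1.91 (1.46 to 2.53), the first lost in 4 of 15 other settings. Tmsb4x, which binds free actin, was lower, at 0.583 (0.504 to 0.676) and 0.478 (0.420 to 0.543), and its E13.5 log2 ratio turned to 0.064 without the late cells. Of the adhesion and cytoskeleton list, 2 of 22 measured members were higher and 1 lower at E13.5, and 3 and 1 at E15.5. Of the cilium list, 3 of 17 were higher and 2 lower at E13.5, and 3 of 18 and 1 at E15.5, with the transition zone gene Tmem107 higher in both (1.69, 1.32 to 2.17; 1.67, 1.35 to 2.07) and the transport gene Ift57 lower in both (0.630, 0.439 to 0.903; 0.542, 0.387 to 0.753). The Tmem107 call at E13.5 was lost in 8 of 15 other settings.

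The glycolytic enzyme Aldoa stood at 7.00 in dividing and 10.8 in non-dividing cells at E13.5 (1.54-fold lower, 1.44 to 1.65) and 4.57 and 9.41 at E15.5 (2.06-fold lower, 1.90 to 2.23). With the mitophagy receptor Bnip3l (1.78-fold lower, 1.5 to 2.11; 1.62-fold lower, 1.37 to 1.91) it was among 4 of 27 measured genes of glycolysis and hypoxia that were lower at E13.5 and 2 of 27 at E15.5, the second a share near that of all genes, and 0 were higher. Of 14 measured matrix proteases and inhibitors, 3 were lower at E13.5 and 5 at E15.5, among them in both libraries Htra1 (1.80-fold lower, 1.03 to 3.18; 2.11-fold lower, 1.26 to 3.66) and Serpine2 (1.53-fold lower, 1.29 to 1.81; 1.72-fold lower, 1.43 to 2.07), and the E13.5 log2 ratio of Serpine2 turned to 0.16 among cells of 10000 to 20000 UMIs. Of the IGF and imprinted growth genes, 2 of 20 at E13.5 and 2 of 19 at E15.5 were lower (Igfbp5 and Igfbp7 in both), and the Igfbp7 call was lost in 10 of 10 other settings at E13.5. In the secretory pathway 2 of 54 measured genes were higher and 2 lower at E13.5, and 1 of 53 each way at E15.5, shares below those of all genes, with the endoplasmic reticulum protein Sdf2l1 higher in both (1.63, 1.26 to 2.12; 1.77, 1.31 to 2.41). Of 23 measured BMP and TGF-beta genes 1 was higher and 3 lower at E13.5, and of 22 at E15.5 4 were lower, with Bmp2 and Tgfb2 in both. Of 20 cholesterol and lipid genes, 2 were lower at E13.5, and 2 were higher and 1 lower at E15.5. None of the 6 measured nuclear long non-coding RNAs was called in either library.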
